A study of Mus musculus with 12 samples.

Results

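The enzymes that make and remove retinoic acid (RA) in the mouse testis were followed through 3 sorted stages of spermatogonia and in whole testes. The group holds 10 genes: Rdh10, Rdh11 and Dhrs3, which act between retinol and retinal, Aldh1a1, Aldh1a2, Aldh1a3 and Aldh1a7, which are aldehyde dehydrogenases, and Cyp26a1, Cyp26b1 and Cyp26c1, which degrade RA. They were chosen by the gene name given in the scanner files, and each was represented by a single probe, so that 10 of the 55681 probes and 10 of the 36315 genes on the array entered the group.

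RA is made from retinol, vitamin A, in 2 steps. Retinol dehydrogenases form retinal in a reversible reaction that reductases such as Dhrs3 drive back, and retinaldehyde dehydrogenases of the Aldh1a family oxidize retinal to RA, which cannot be turned back. Cytochromes P450 of the CYP26 family hydroxylate RA and so end its action, and in the testis RA drives undifferentiated spermatogonia into differentiation.

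All mice were C57BL/6 and 10 to 11 weeks old. GFRα1+ spermatogonia, the most primitive fraction, were the EGFP+ cells of GFRα1-EGFP mice, a knock-in line. NGN3+ spermatogonia were sorted from transgenic Ngn3-EGFP mice as EGFP+/KIT− cells, and KIT+ spermatogonia, which are differentiating, were the EGFP+/KIT+ cells of the same line, in which EGFP outlasts the expression of its gene. The unsorted tissue was whole testes of wild type littermates of the GFRα1-EGFP mice. Each group had 3 arrays. RNA came from 10000 to 20000 sorted cells (500000 cells for whole testes), from 1 mouse per sample for GFRα1+ and KIT+ cells and from 2 pooled mice for NGN3+ cells, and 25 ng of RNA was labelled. Because GFRα1+ cells came from one reporter line and the other sorted cells from another, line and stage cannot be told apart in comparisons with GFRα1+ cells.

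Levels are given as the log2 processed signal of the probe, scaled so that the 75th percentile of each array is 0, and levels of different probes are not compared. A probe counted as well above background by the scanner software's own flag. That flag was set for 50.1% to 50.8% of probes in GFRα1+ cells, 59.5% to 65.1% in NGN3+ cells, 54.8% to 62.0% in KIT+ cells and 54.8% to 57.6% in whole testes. The arrays lay on 3 slides. The second, read on another scanner, carried every NGN3+ and KIT+ array together with GFRα1+ replicate 3. The first carried GFRα1+ replicates 1 and 2 with whole testes replicate 1. The mean log2 level of 9 markers of undifferentiated spermatogonia was 3.31 to 3.35 on GFRα1+ arrays, 1.60 to 2.10 on NGN3+ arrays, −0.93 to −0.57 on KIT+ arrays and −1.77 to −1.58 in whole testes. That of 5 markers of differentiating spermatogonia was highest on KIT+ arrays, at 4.65 to 4.82. Markers of other testis cells also differed between the fractions. The mean of 10 spermatid genes was −0.07 to 1.1 on GFRα1+ arrays, 5.31 to 5.89 on NGN3+ arrays, 5.68 to 6.26 on KIT+ arrays and 8.25 to 8.52 in whole testes. That of 7 spermatocyte genes was −0.55 to −0.16 (GFRα1+), 1.54 to 2.39 (NGN3+), 1.89 to 2.37 (KIT+) and 4.24 to 4.43 (whole testes). The mean of 6 genes of peritubular myoid cells was −3.72 to −3.42 on GFRα1+ arrays, −0.66 to 0.43 on NGN3+ arrays, −1.59 to −0.91 on KIT+ arrays and 1.77 to 1.99 in whole testes. For 11 Sertoli cell genes it was −0.86 to −0.45 (GFRα1+), 0.17 to 0.68 (NGN3+), 0.35 to 0.59 (KIT+) and 3.07 to 3.41 (whole testes), and of 7 Leydig cell genes 1 to 2 were well above background on each sorted array, against 6 in each whole testis. The mean of 6 macrophage genes went the other way, at −3.09 to −2.92 on GFRα1+ arrays and −4.06 to −3.50 on NGN3+ arrays. It was −4.16 to −3.88 on KIT+ arrays and −2.39 to −2.29 in whole testes. Single macrophage genes did not share a direction. Adgre1, not tested, averaged −5.62 in GFRα1+ cells (0 arrays well above background) and −4.28 in NGN3+ cells (2 arrays). Cd68 and Lyz2 were well above background on 0 arrays of either group. Of the 3 macrophage genes tested between NGN3+ and GFRα1+ cells, Csf1r and Mrc1 were lower (log2 ratios −1.10 and −3.01) and Cd14 higher (0.54). Of 5 endothelial genes tested 1 was lower, Kdr (−1.26), and 1 higher, with a median of −0.04. The endothelial gene Vwf averaged −1.59 in GFRα1+ cells and 0.33 in NGN3+ cells. Of 2 Leydig cell genes tested Cyp17a1 was lower (−1.75). In such bulk samples fewer cells of a type and less RNA per cell cannot be told apart.

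The fractions differed in enzymes of both RA synthesis and RA degradation. Aldh1a3 and Dhrs3 were higher in GFRα1+ cells than in either later fraction, Cyp26b1 rose at both later stages, and Rdh11 rose once, at the NGN3+ stage. Of 9 members tested between NGN3+ and GFRα1+ cells, 3 rose and 5 fell in NGN3+ cells at an adjusted p under 0.05 (limma with Benjamini-Hochberg adjustment over all genes), while across the array 20% of 23790 genes tested rose (4767) and 36.4% fell (8657). The median log2 ratio was −0.92 for the members and −0.19 for all genes tested. When each array was instead scaled to the percentile of probes detected throughout the series, that median was −0.01, 5940 genes rose (25%) and 5936 fell (25%), and the members called were 3 higher and 4 lower. Against whole testes that scaling put the median of all genes in GFRα1+ cells at −0.02, where it was otherwise 0.39. Between KIT+ and NGN3+ cells 2 of 9 members were higher and 0 lower at this threshold, where 17.5% of 24110 genes were higher and 17% lower (medians 0.27 and 0.05). At an unadjusted p under 0.05 limma had 4 members higher and 0 lower there, against 22.3% and 21.2% of all genes, and the methods' t-test with the same adjustment called 3 higher and 0 lower (Aldh1a2, Rdh10 and Cyp26b1), against 15.8% and 14.1%. Between KIT+ and GFRα1+ cells 3 of 9 members were higher and 3 lower, against 26.6% and 39.5% of 23002 genes (medians −0.21 and −0.16). Cyp26c1 was not tested because its probe was well above background on 0 of 12 arrays. The 3 comparisons share their samples pairwise. With 3 arrays a group, 0.1 is the smallest p that an exact two-sided permutation test of 1 gene can give.

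**Figure D1:**
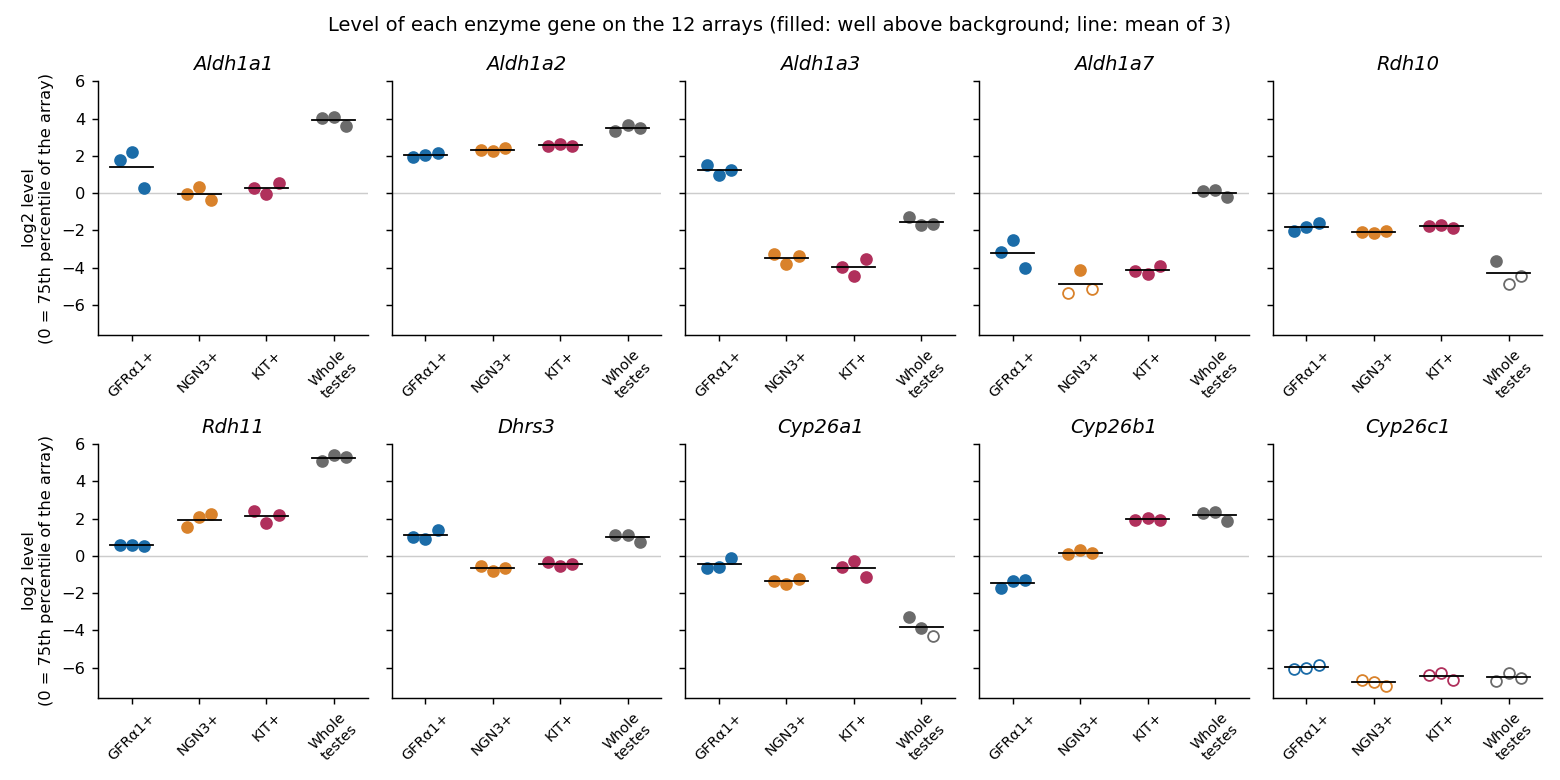
Log2 level of each of the 10 enzyme genes (vertical axis, 0 is the 75th percentile of the array) on the 3 arrays of GFRα1+, NGN3+ and KIT+ cells and whole testes. Filled points were well above background, open points were not, and lines are means of 3 arrays. Aldh1a3 stands at 0.97 to 1.53 in GFRα1+ cells and below −3.2 in both later fractions, and Cyp26b1 steps up at each stage.

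Rdh10, the dehydrogenase that carries most retinol oxidation in the mouse embryo, did not pass the main test between any sorted fractions, though some alternatives called it. Its log2 level was −2.04, −1.84 and −1.61 in GFRα1+ cells, −2.11, −2.12 and −2.06 in NGN3+ cells, −1.77, −1.69 and −1.88 in KIT+ cells and −3.64, −4.85 and −4.42 in whole testes, where 1 of 3 arrays was well above background. All sorted arrays lay between −2.12 and −1.61, above whole testes, and the NGN3+ arrays were the lowest. NGN3+ over GFRα1+ cells gave a log2 ratio of −0.27 (95% confidence interval −0.55 to 0.02, adjusted p = 0.0997), which was −0.08 relative to the median of all genes. It was called without GFRα1+ replicate 1 (−0.37, adjusted p = 0.0407) and with quantile normalization (−0.38, adjusted p = 0.0213). Over its alternatives the adjusted p was 0.0213 to 0.563. With slide as a block the ratio was −0.49, which rests on GFRα1+ replicate 3. The log2 ratio of KIT+ over NGN3+ cells was 0.32 (0.03 to 0.60, adjusted p = 0.0868), and that of KIT+ over GFRα1+ cells 0.05 (−0.24 to 0.33, adjusted p = 0.746). Against whole testes Rdh10 was 5.57-fold higher in GFRα1+ cells (adjusted p = 1.74e-06), 4.63-fold in NGN3+ cells (6.74e-06) and 5.76-fold in KIT+ cells (2.03e-06), log2 ratios of 2.48, 2.21 and 2.53. Since 2 of 3 whole testes were not well above background, the size of these ratios depended on the background. With normexp correction they were 1.0 (GFRα1+), 0.76 (NGN3+) and 0.85 (KIT+), all with an adjusted p under 0.05. With slide as a block they were 1.71, 1.22 and 1.53. The blocked ratios rest on whole testes replicate 1 and, for NGN3+ and KIT+ cells, also on GFRα1+ replicate 3.

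Rdh11, a microsomal retinal reductase of the same short-chain family, was higher in both later fractions. Its log2 level was 0.57, 0.60 and 0.54 in GFRα1+ cells, 1.54, 2.06 and 2.24 in NGN3+ cells, 2.41, 1.77 and 2.17 in KIT+ cells and 5.07, 5.40 and 5.30 in whole testes. NGN3+ and KIT+ arrays overlapped, and both stood above all GFRα1+ arrays and below all whole testes. Rdh11 was 2.59-fold higher in NGN3+ cells than in GFRα1+ cells, a log2 ratio of 1.37 (0.89 to 1.85, adjusted p = 0.000756). The ratio of KIT+ over GFRα1+ cells was 1.54 (1.07 to 2.02, adjusted p = 0.000206), and that of KIT+ over NGN3+ cells 0.17 (−0.31 to 0.65, adjusted p = 0.583). Rdh11 was 25.7-fold lower in GFRα1+ cells than in whole testes (log2 ratio −4.68, adjusted p = 1.22e-09). The 10 spermatid genes also all rose in NGN3+ against GFRα1+ cells (median log2 ratio 5.28). Between KIT+ and NGN3+ cells they had adjusted p-values of 0.218 to 0.669 (median 0.39). On GFRα1+ replicates 1, 2 and 3 their mean level was 0.66, −0.07 and 1.1, where Rdh11 was 0.57, 0.60 and 0.54. Of 7 spermatocyte genes tested, 6 also rose and 1 fell in NGN3+ against GFRα1+ cells (median 1.59). Between KIT+ and NGN3+ cells 1 of them was higher and 0 lower (median 0.30). The part of both lists in the Rdh11 difference was not tested.

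Dhrs3, which reduces retinal back to retinol and so limits RA synthesis, fell after the GFRα1+ stage. Its log2 level was 1.0, 0.93 and 1.36 in GFRα1+ cells, −0.55, −0.79 and −0.67 in NGN3+ cells, −0.35, −0.54 and −0.44 in KIT+ cells and 1.11, 1.12 and 0.75 in whole testes. GFRα1+ cells and whole testes overlapped and stood above all arrays of the later fractions. Dhrs3 was 3.40-fold lower in NGN3+ than in GFRα1+ cells (log2 ratio −1.77, −2.08 to −1.45, adjusted p = 1.50e-05) and 2.91-fold lower in KIT+ than in GFRα1+ cells (−1.54, −1.85 to −1.23, adjusted p = 1.52e-05). The log2 ratio of KIT+ over NGN3+ cells was 0.22 (−0.09 to 0.54, adjusted p = 0.259). Between GFRα1+ cells and whole testes it did not pass the test (log2 ratio 0.10, −0.22 to 0.43, adjusted p = 0.521, −0.30 with the other percentile), and was lower than in whole testes in NGN3+ cells (−1.66, adjusted p = 9.36e-07) and KIT+ cells (−1.44, adjusted p = 2.92e-06). Of 3 macrophage genes tested, Csf1r and Mrc1 were also lower in both later fractions than in GFRα1+ cells, while Cd14 was higher in NGN3+ cells. The part of these genes in the Dhrs3 difference was not tested.

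Aldh1a3, one of the retinaldehyde dehydrogenases, gave the largest difference of the group between sorted fractions. Its probe lies at chr7:73535785-73535844 on the minus strand of mm9. The log2 level was 1.53, 0.97 and 1.23 in GFRα1+ cells, −3.27, −3.82 and −3.37 in NGN3+ cells, −3.95, −4.44 and −3.51 in KIT+ cells and −1.29, −1.70 and −1.65 in whole testes. GFRα1+ cells stood above whole testes, and whole testes above both later fractions, without overlap. Aldh1a3 was 26.6-fold lower in NGN3+ than in GFRα1+ cells (log2 ratio −4.73, −5.32 to −4.15, adjusted p = 2.47e-06), and 2.54% of the genes tested had a larger ratio in either direction. It was 36.9-fold lower in KIT+ than in GFRα1+ cells (−5.21, −5.79 to −4.63, adjusted p = 6.62e-07). With normexp background correction these log2 ratios were −3.58 and −3.68, still called. KIT+ and NGN3+ cells overlapped (log2 ratio −0.48, −1.06 to 0.11, adjusted p = 0.197). Against whole testes it was 6.93-fold higher in GFRα1+ cells (adjusted p = 5.70e-07), 3.83-fold lower in NGN3+ cells (adjusted p = 1.96e-05) and 5.33-fold lower in KIT+ cells (adjusted p = 2.86e-06). For NGN3+ and KIT+ cells the log2 ratios were −1.94 and −2.41, and with normexp −1.20 and −1.30. Csf1r and Mrc1 were also lower in the later fractions than in GFRα1+ cells, while Cd14 was higher in NGN3+ cells. In whole testes, where Aldh1a3 was lower than in GFRα1+ cells, Csf1r averaged 1.06 and Mrc1 0.01. In GFRα1+ cells they averaged 0.98 and −0.71. The part of these macrophage genes in the Aldh1a3 differences was not tested.

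Aldh1a2, which makes RA in the early mouse embryo, differed little between the fractions. Its log2 level was 1.97, 2.07 and 2.15 in GFRα1+ cells, 2.33, 2.28 and 2.42 in NGN3+ cells, 2.56, 2.66 and 2.55 in KIT+ cells and 3.36, 3.66 and 3.49 in whole testes. The 4 groups did not overlap and stood in that order. The log2 ratio of KIT+ over GFRα1+ cells was 0.52 (0.30 to 0.74, adjusted p = 0.00133), a 1.44-fold difference. Each single step was smaller, at 0.28 for NGN3+ over GFRα1+ cells (0.06 to 0.50, adjusted p = 0.0371, 0.47 relative to the median of all genes) and 0.24 for KIT+ over NGN3+ cells (0.02 to 0.47, adjusted p = 0.0859). The NGN3+ step lost its call without any one of GFRα1+ replicates 1 and 2 (0.23 and 0.28, adjusted p = 0.126 and 0.0828) and NGN3+ replicates 1, 2 and 3 (0.28, 0.31 and 0.24, adjusted p = 0.0592, 0.0691 and 0.108). Over all its alternatives that step had adjusted p-values of 0.00274 to 0.339. Aldh1a2 was lower than in whole testes by log2 ratios of −1.44 in GFRα1+ cells (adjusted p = 1.20e-07), −1.16 in NGN3+ cells (1.28e-06) and −0.92 in KIT+ cells (8.68e-06). All 10 spermatid genes also rose in NGN3+ and in KIT+ against GFRα1+ cells. Of 7 spermatocyte genes, 6 rose and 1 fell in NGN3+ cells, and 5 rose and 0 fell in KIT+ cells. The part of both lists in the Aldh1a2 differences was not tested.

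Aldh1a1 and Aldh1a7 are neighbouring paralogues on mouse chromosome 19, where Aldh1a1 lies on the plus strand and Aldh1a7 on the minus strand. The 100 bases before their starts, from the RefSeq promoter windows of GRCm38.p6, are shown because Aldh1a1 had the pattern closest to that of Aldh1a7 among 25679 genes. The capitals mark the longest stretch that both share without a mismatch, 65 bases, and 94 of the 100 bases match. Of 32851 promoter windows 2 hold the stretch, the 2 windows from which it was defined. Whether the shared bases bear on the levels of the genes was not tested. Over the whole windows of 300 bases 177 match at the same position. The Aldh1a1 window was taken as the one with the longest run shared with Aldh1a7. The coordinates are chr19:20601868-20601967 for Aldh1a1 (plus strand) and chr19:20727557-20727656 for Aldh1a7 (minus strand).
Aldh1a1: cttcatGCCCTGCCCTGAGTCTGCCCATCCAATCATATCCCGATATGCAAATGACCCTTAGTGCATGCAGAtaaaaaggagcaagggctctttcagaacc
Aldh1a7: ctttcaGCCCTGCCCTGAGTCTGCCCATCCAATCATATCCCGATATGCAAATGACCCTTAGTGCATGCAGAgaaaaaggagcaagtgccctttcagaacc
The probes of the pair were less alike. They shared no run longer than 8 bases, where the longest run shared by any of the 45 pairs of member probes was 9 bases. Whether a probe also bound the other gene's transcript was not tested.

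Aldh1a1, a retinaldehyde dehydrogenase found in Sertoli cells of the mouse testis, was highest in whole testes. Its log2 level was 1.78, 2.21 and 0.29 in GFRα1+ cells, −0.04, 0.35 and −0.38 in NGN3+ cells, 0.28, −0.06 and 0.53 in KIT+ cells and 4.03, 4.09 and 3.62 in whole testes. GFRα1+ replicate 3, the only GFRα1+ array of the second slide, stood among the NGN3+ and KIT+ arrays, and the other GFRα1+ arrays above them. For NGN3+ over GFRα1+ cells the log2 ratio was −1.45 (−2.47 to −0.43, adjusted p = 0.0229, −1.26 relative to the median of all genes) over all arrays and −0.31 within the second slide (adjusted p = 0.469), where the spread comes from NGN3+ and KIT+ arrays alone. That of KIT+ over GFRα1+ cells was −1.18 (−2.19 to −0.17, adjusted p = 0.0424, −1.02 relative to the median) over all arrays and −0.04 within the second slide (adjusted p = 0.928). The NGN3+ call was lost without GFRα1+ replicate 1 or 2 (−1.27 and −1.06, adjusted p = 0.0718 and 0.069) and without NGN3+ replicate 1 or 3 (−1.44 and −1.27, adjusted p = 0.0556 and 0.0772), and its alternatives spanned adjusted p-values of 0.000429 to 0.474. The KIT+ call was lost without GFRα1+ replicate 1 or 2 (−1.0 and −0.79, adjusted p = 0.121 and 0.137) and without KIT+ replicate 1, 2 or 3 (−1.19, −1.02 and −1.32, adjusted p = 0.0867, 0.126 and 0.0588), with 0.000518 to 0.929 over its alternatives. Against whole testes Aldh1a1 was 5.60-fold lower in GFRα1+ cells (adjusted p = 0.00014), 15.3-fold lower in NGN3+ cells (4.00e-06) and 12.7-fold lower in KIT+ cells (6.81e-06). The log2 ratios of NGN3+ and KIT+ cells, −3.93 and −3.66, were −2.34 and −2.07 with slide as a block. Those blocked ratios rest on GFRα1+ replicate 3 and whole testes replicate 1, since no slide held whole testes with NGN3+ or KIT+ cells. Csf1r, Mrc1, Kdr and Cyp17a1 were also lower in NGN3+ than in GFRα1+ cells, while Cd14 and 1 of 5 endothelial genes tested were higher. Between KIT+ and GFRα1+ cells 2 of 3 macrophage, 4 of 5 endothelial and 1 of 2 Leydig cell genes tested were lower and 0 higher. The part of these genes in the Aldh1a1 differences was not tested.

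Aldh1a7, a rodent paralogue of Aldh1a1, had a log2 level of −3.15, −2.51 and −4.00 in GFRα1+ cells, −5.35, −4.12 and −5.17 in NGN3+ cells, −4.17, −4.32 and −3.90 in KIT+ cells and 0.10, 0.15 and −0.23 in whole testes. Its probe was well above background on 1 of 3 NGN3+ arrays (replicate 2) and on every array of the other groups, and GFRα1+ replicate 3 was again the lowest of its group. NGN3+ cells lay below GFRα1+ cells by a log2 ratio of −1.66 (−2.60 to −0.72, adjusted p = 0.0088) over all arrays and of −0.88 within the second slide (adjusted p = 0.165, range over its alternatives 0.000224 to 0.168). That of KIT+ over GFRα1+ cells was −0.91 (−1.84 to 0.02, adjusted p = 0.0785), or −1.30 without GFRα1+ replicate 3 (adjusted p = 0.0138, range over its alternatives 0.00173 to 0.834), and that of KIT+ over NGN3+ cells 0.75 (−0.19 to 1.69, adjusted p = 0.204). It was 9.36-fold lower than in whole testes in GFRα1+ cells (adjusted p = 7.51e-06), 29.6-fold in NGN3+ cells (3.18e-07) and 17.6-fold in KIT+ cells (1.19e-06), log2 ratios of −3.23, −4.89 and −4.14. In NGN3+ cells, where 2 of 3 arrays were not well above background, the fold rests on dim values. With normexp these log2 ratios were −1.89 (GFRα1+), −2.77 (NGN3+) and −2.50 (KIT+), all called. With slide as a block they were −3.80 (NGN3+) and −3.05 (KIT+), which rest on GFRα1+ replicate 3 and whole testes replicate 1. NGN3+ over GFRα1+ cells gave −0.88 with normexp, also called. The 11 Sertoli cell genes were likewise all lower in each fraction than in whole testes, with median log2 ratios of −3.82 (GFRα1+), −3.19 (NGN3+) and −2.89 (KIT+). Their part in the levels of Aldh1a1 and Aldh1a7 was not tested.

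Cyp26b1, which clears RA in the fetal testis of the mouse, rose at both steps. Its log2 level was −1.70, −1.34 and −1.28 in GFRα1+ cells, 0.12, 0.29 and 0.13 in NGN3+ cells, 1.91, 2.03 and 1.94 in KIT+ cells and 2.28, 2.37 and 1.89 in whole testes. The 3 fractions stood apart without overlap, and KIT+ cells overlapped whole testes. Cyp26b1 was 3.07-fold higher in NGN3+ than in GFRα1+ cells (log2 ratio 1.62, 1.32 to 1.91, adjusted p = 1.76e-05), 3.44-fold higher in KIT+ than in NGN3+ cells (1.78, 1.49 to 2.08, adjusted p = 4.07e-05) and 10.6-fold higher in KIT+ than in GFRα1+ cells (3.40, 3.11 to 3.70, adjusted p = 3.49e-07, 2.74 with normexp background correction). At the KIT+ step 3.88% of genes tested had a larger ratio in either direction. Against whole testes it was 12.3-fold lower in GFRα1+ cells (adjusted p = 9.85e-10) and 4.0-fold lower in NGN3+ cells (adjusted p = 2.48e-07). The log2 ratio of KIT+ cells over whole testes was −0.22 (−0.55 to 0.12, adjusted p = 0.196), or −0.36 without whole testes replicate 3 (adjusted p = 0.0382, range over its alternatives 0.0103 to 0.494). At the NGN3+ step all 10 spermatid genes, all 6 genes of peritubular myoid cells and 6 of 10 Sertoli cell genes tested also rose. Of 7 spermatocyte genes 6 rose and 1 fell there. The part of these genes in that difference was not tested. At the KIT+ step the 10 spermatid genes had a median log2 ratio of 0.39 and the 10 Sertoli cell genes one of 0.13, with Wt1 lower (−0.83, adjusted p = 0.0113). Of the 7 spermatocyte genes 1 was higher and 0 lower (median 0.30), and 4 of the 6 peritubular myoid genes were lower (median −1.50). The part of these genes in the Cyp26b1 difference at the KIT+ step was not tested either.

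**Figure D2:**
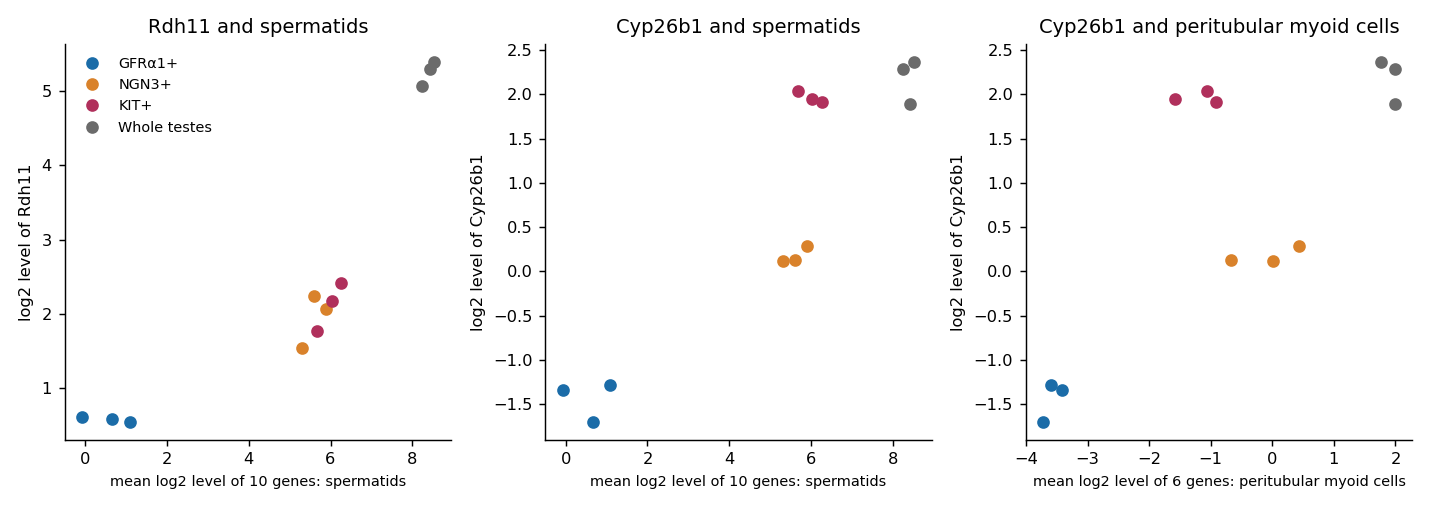
Log2 level of Rdh11 or Cyp26b1 (vertical axes) against the mean log2 level of 10 spermatid or 6 peritubular myoid genes (horizontal axes), 1 point per array, coloured by group. Between NGN3+ and KIT+ arrays Cyp26b1 differs by 1.78 on average. The spermatid mean is 5.31 to 5.89 on NGN3+ arrays and 5.68 to 6.26 on KIT+ arrays, and the myoid mean is lower on KIT+ arrays. The part of either list in the levels of Rdh11 and Cyp26b1 was not tested.

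Cyp26a1, the family member whose gene is a classical RA target, was lowest in NGN3+ cells among the fractions. Its promoter window was the only one of the 12 windows of 8 members to hold a direct repeat of the RA receptor half-site with a spacing of 5 bases. The search took the half-sites AGGTCA or AGTTCA or GGGTCA or GGTTCA in any pair, in the same direction and on both strands. Of 32851 windows of 300 bases, 32 (0.0974%) held such a repeat, and repeats with a spacing of 1 or 2 bases were in 73 and 88 windows and in 0 member windows. No window was used for Aldh1a3 and Rdh10. A match is a run of letters and says nothing of receptor binding. The 100 bases before the start are given with the half-sites in capitals (AGTTCA on the minus strand, so TGAACT here), at chr19:37697708-37697807 of GRCm38.p6, plus strand.
Cyp26a1: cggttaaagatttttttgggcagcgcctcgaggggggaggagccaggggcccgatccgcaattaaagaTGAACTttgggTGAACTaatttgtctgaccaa

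The log2 level of Cyp26a1 was −0.66, −0.58 and −0.09 in GFRα1+ cells, −1.33, −1.53 and −1.23 in NGN3+ cells, −0.60, −0.25 and −1.13 in KIT+ cells and −3.27, −3.86 and −4.30 in whole testes, where 2 of 3 arrays were well above background. NGN3+ cells stood below both other fractions and all fractions above whole testes. Cyp26a1 was 1.89-fold lower in NGN3+ than in GFRα1+ cells (log2 ratio −0.92, −1.46 to −0.38, adjusted p = 0.0106). It was 1.63-fold higher in KIT+ than in NGN3+ cells (0.71, 0.16 to 1.25, adjusted p = 0.0491, 0.66 relative to the median of all genes), a call that was lost without NGN3+ replicate 1, 2 or 3 (0.72, 0.62 and 0.77, adjusted p = 0.107, 0.146 and 0.0733) and without KIT+ replicate 1 or 2 (0.67 and 0.50, adjusted p = 0.119 and 0.15). Over its alternatives the adjusted p was 0.0147 to 0.15. KIT+ and GFRα1+ cells overlapped (log2 ratio −0.21, −0.75 to 0.32, adjusted p = 0.448). The gene was 10.3-fold higher than in whole testes in GFRα1+ cells (adjusted p = 3.89e-07), 5.45-fold in NGN3+ cells (9.26e-06) and 8.88-fold in KIT+ cells (1.02e-06), log2 ratios of 3.36, 2.45 and 3.15. With normexp they were 1.83 (GFRα1+), 1.03 (NGN3+) and 1.53 (KIT+), all called. With slide as a block they were 2.65, 1.37 and 2.08. The blocked ratios rest on whole testes replicate 1 and, for NGN3+ and KIT+ cells, also on GFRα1+ replicate 3. Cyp26c1, the third member of the family, had log2 levels of −6.09 to −5.85 in GFRα1+ cells, −6.99 to −6.65 in NGN3+ cells, −6.67 to −6.29 in KIT+ cells and −6.71 to −6.29 in whole testes, all not well above background.

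**Figure D3:**
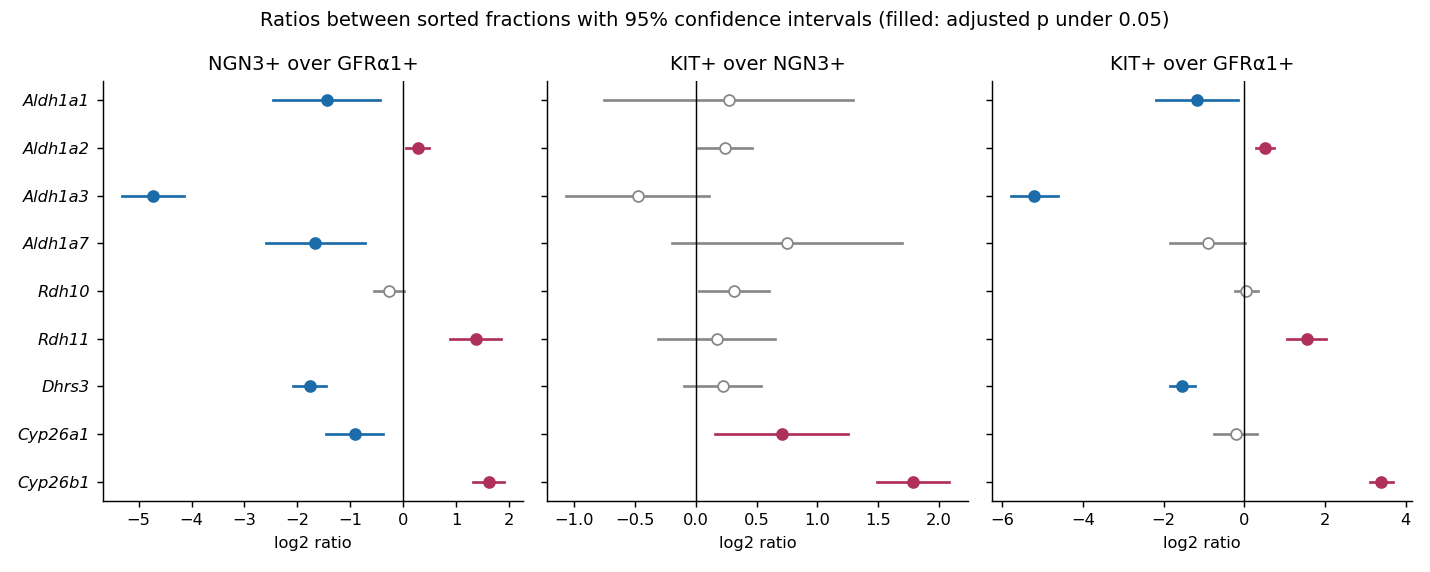
Log2 ratios of the 9 tested genes with 95% confidence intervals for NGN3+ over GFRα1+, KIT+ over NGN3+ and KIT+ over GFRα1+ cells. Filled points passed an adjusted p of 0.05 (limma), and the horizontal scales differ between panels. Aldh1a3 has the largest ratio in the first panel (−4.73) and Cyp26b1 in the second (1.78).

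Compared with whole testes, most members were depleted from the fractions and a few enriched. No slide held whole testes with NGN3+ or KIT+ cells, so for every member those comparisons also set one slide and scanner against others. In GFRα1+ cells Aldh1a3, Rdh10 and Cyp26a1 were higher and 5 members lower, while of 24185 genes 49.9% were higher and 37.5% lower. Of the members, Rdh10 and Cyp26a1 (2) were higher in NGN3+ cells and 7 lower, against 44.1% and 39.6% of 25342 genes. In KIT+ cells the same 2 were higher and 6 lower, against 43.3% and 41.6% of 24694 genes. The members' median log2 ratio was −1.44 in GFRα1+, −1.94 in NGN3+ and −1.44 in KIT+ cells, and that of all genes tested 0.39, 0.13 and 0.05. Aldh1a3 was thus the 1 member that lay above whole testes in 1 fraction and below in the other fractions, on 3 of 3 arrays each.

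Slide, scanner, software version and the single mouse of GFRα1+ replicate 3 cannot be told apart. That array was the only one of GFRα1+ cells on the second slide, so the ratio within the slide set 3 NGN3+ arrays against 1, and its test took the spread from the NGN3+ and KIT+ arrays and assumed that GFRα1+ cells vary like them. The log2 ratios there were −4.72 for Aldh1a3, −2.03 for Dhrs3, 1.40 for Rdh11, −1.27 for Cyp26a1 and 1.46 for Cyp26b1, against −4.73, −1.77, 1.37, −0.92 and 1.62 over all arrays. Those of Aldh1a1 (−0.31), Aldh1a2 (0.19) and Aldh1a7 (−0.88) were smaller within the slide, and that of Rdh10 (−0.49) was larger. Under that assumption 6 members were called, 2 higher and 4 lower, against 15.3% and 20.8% of 24147 genes. KIT+ and NGN3+ arrays all lay on the second slide.

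**Figure D4:**
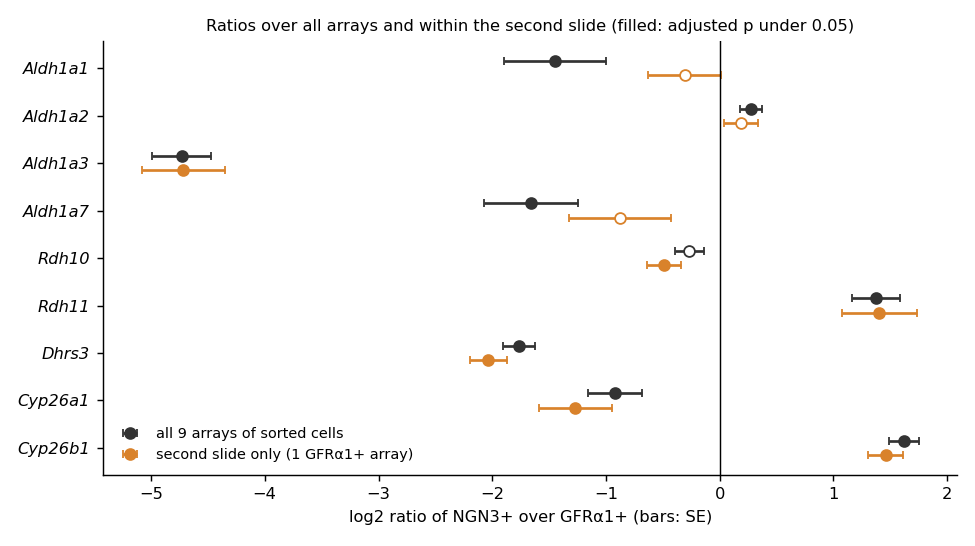
Log2 ratio of NGN3+ over GFRα1+ cells for the 9 tested genes, with SE bars, over all 9 arrays of sorted cells and within the second slide, which holds 1 GFRα1+ array and takes its spread from the other fractions. Filled points passed an adjusted p of 0.05. The ratio of Aldh1a1 is −1.45 over all arrays and −0.31 within the slide, and that of Aldh1a3 is −4.73 and −4.72.

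Other genes of retinoid metabolism were counted in the same way. Of 12 other retinol dehydrogenases and reductases tested of 19, 2 rose and 3 fell in NGN3+ against GFRα1+ cells (median log2 ratio −0.13). Retsat, which saturates retinol, was lower (−0.83, adjusted p = 0.000121), and Adh4, an alcohol dehydrogenase that also oxidizes retinol, was at least 6.24-fold higher, since its probe was well above background on 0 GFRα1+ arrays (adjusted p = 0.000283). Of 14 other aldehyde dehydrogenases tested of 15, 2 were higher and 6 lower (median −0.07), with Aldh3b1 highest at a log2 ratio of 3.49 (adjusted p = 1.26e-05). Of 4 enzymes of retinyl esters and carotenoids tested of 10, 2 were higher and 1 lower (median 0.83). These were Bco1, which cleaves carotene to retinal (3.04, adjusted p = 4.51e-05, with 2 of 3 GFRα1+ arrays above background), and Lipe, hormone-sensitive lipase (1.62, adjusted p = 0.000118), and, lower, the lipase Pnpla2 (−0.65, adjusted p = 0.00523). Adh4, Aldh3b1, Bco1 and Lipe stood higher in whole testes than in any fraction, with mean log2 levels there of 2.25, 3.92, 2.25 and 3.71. All 10 spermatid genes and 6 of 7 spermatocyte genes also rose in NGN3+ cells, and their part in these differences was not tested. Lrat, which esterifies retinol, was well above background on 0 of 12 arrays.

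The lists of RA binding and response are given for both steps, whose difference was not tested. Of 11 retinoid binding and uptake genes tested of 13, 6 were higher and 2 lower in KIT+ than in NGN3+ cells (median 0.67), among them Crabp1, a cytosolic RA-binding protein (1.45, adjusted p = 0.000139). Between NGN3+ and GFRα1+ cells 2 of 10 were higher and 1 lower (median 0.20). Of 9 RA target genes tested of 11, 6 were higher and 1 lower at the KIT+ step (median 1.13), with Stra8, which RA induces before differentiation and meiosis, at 1.91 (adjusted p = 0.000329), and 3 were higher and 0 lower at the NGN3+ step (median 0.14), where Stra8 stood at −0.38 (adjusted p = 0.171). Some genes of the target list, among them Rarb, Crabp2, Lrat and Stra6, are in other lists as well. Among the 6 RA receptor genes Rarg, one of the nuclear receptors, rose in NGN3+ against GFRα1+ cells (1.63, adjusted p = 4.68e-05) and fell in KIT+ against NGN3+ cells (−1.15, adjusted p = 0.000682), and Rarb, itself induced by RA, was higher at the KIT+ step (1.64, adjusted p = 0.00483).

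The genes whose pattern was most like that of a member were sought for the 3 members with the largest range between group means, by the root mean square difference of log2 levels centred on the mean of the 12 arrays, among 25679 genes. For Aldh1a3 they were Cd109 (0.35), Frem1 (0.54) and Slc16a9 (0.58). Cd109 averaged 1.11 on the log2 scale in GFRα1+ cells, −3.27 in NGN3+, −4.02 in KIT+ and −2.10 in whole testes. For Aldh1a7 the closest gene was its paralogue Aldh1a1 (0.42), followed by Mgst1 (0.47). For Rdh11 the closest genes with a symbol were Ccdc113 (0.10) and Dnaic1 (0.11), which encode proteins of cilia and flagella. Ccdc113 averaged 1.68 on the log2 scale in GFRα1+ cells, 2.96 in NGN3+, 3.04 in KIT+ and 6.16 in whole testes.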

How the data were processed

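RNA was measured on 12 Agilent 1-colour arrays, 3 for each of 4 groups, assigned from the labels. The authors extracted spots with Agilent Feature Extraction (10.7.3.1 in the submitters' processing notes) and deposited, per spot, a background-corrected intensity (the processed signal) and flags, and for the series a table of log2 values. That table held the same signals scaled by the 75th percentile of an array, with column medians of −3.84 to −3.44, no centring of genes, and a constant difference within 0.001 on 100% of probes.

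Here the processed signal was put on the log2 scale, control and outlier spots (103 to 161 per array) were left out, spots of a probe averaged and the 75th percentile of the array (318 to 675 on the intensity scale) subtracted. No spot was saturated (0 on each array). Gene names were updated through the RefSeq table of GRCm38.p6, using the accession for 26413 probes, symbol for 3859 and synonym for 735, and left as given for 24674. Coordinates of probes follow the files (mm9), and the part of a transcript that a probe covers was not determined here. The probe with the highest mean stood for a gene. A gene was tested where 1 group or more had it well above background in 3 of 3 arrays, with limma 3.58.1 in R 4.3.3, over the 9 sorted arrays in 1 fit or all 12 arrays where whole testes entered, and Benjamini-Hochberg adjustment. Where a probe was well above background on 0 arrays of a group, the ratio is a bound, set by the brighter group's mean against a floor, which on each array was the larger of that probe's own value and the dimmest level flagged as above background. The script was tested on simulated data. The number of arrays limits the precision. Within a cell type the 3 samples came from different animals, per the paper's methods. Whether NGN3+ and KIT+ samples shared mice is not given in the sources used here.

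The members, gene lists, rule for named genes (all members, up to 4 genes per list with the smallest adjusted p, and the 3 closest patterns) and tests were chosen with earlier results of these data known. Alternatives were other scalings, filters, backgrounds, probe rules, blocks, slides, tests, and each array left out. Slide, scanner and software version changed together. The replicate numbers did not pair the samples.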

Additional observations from a re-analysis of the deposited data

How the results depend on the processing

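No called member changed direction under any alternative tried. A scale set by the spike-in controls was not among the alternatives. Relative to the 75th percentile of an array, the mean log2 signal of these controls was 0.80 to 1.46 on GFRα1+ arrays. On NGN3+ arrays it was −0.65 to −0.47, on KIT+ arrays −0.72 to −0.64 and in whole testes 0.50 to 1.0. How far ratios between groups would move on such a scale was not tested. Of 945 member ratios recomputed, 888 kept their direction and side of the threshold, 43 lost and 14 gained a call. Aldh1a3, Rdh11, Dhrs3, Cyp26a1 and Cyp26b1 kept their NGN3+ over GFRα1+ call under all 18 alternatives. Between NGN3+ and GFRα1+ cells 8 members and 13424 genes were called, and within the second slide, where the lone GFRα1+ array is assumed to vary like the other fractions, 8725 genes. With the percentile taken over probes detected throughout the series, the median log2 ratio of all genes was −0.01 and 5940 genes were higher and 5936 lower, against −0.19, 4767 and 8657. With normexp background correction, 3719 genes were higher and 10062 lower in this comparison. Between KIT+ and NGN3+ cells 2 members were called, and 1 with that percentile, with no filter on dim probes or with the replicate number as a block, and 1 to 2 without single arrays. With quantile normalization, normexp, slide as a block or the methods' t-test 3 were called there. Normexp gave smaller ratios for Aldh1a3, Aldh1a7, Rdh10, Cyp26a1 and Cyp26b1 in the comparisons where its value is given. Ratios with no call changed sign for Rdh11 (KIT+ over NGN3+), Rdh10 and Cyp26a1 (KIT+ over GFRα1+) and Dhrs3 (GFRα1+ over whole testes).

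Same-numbered arrays of 2 groups correlated at −0.35 to 0.17 in their deviations from group means (2 of 18 pairs over 0.1), so the numbers were not taken as a pairing. With the replicate number as a block 12445 genes and 7 members were called between NGN3+ and GFRα1+ cells (8 without), 7130 genes between KIT+ and NGN3+ cells (8327 without), and 14460 genes and 6 members between KIT+ and GFRα1+ cells. The first slide alone was added for GFRα1+ cells over whole testes after seeing the data. A filter on both groups left Aldh1a7 untested in comparisons with NGN3+ cells, and Rdh10 and Cyp26a1 in those with whole testes. Low signal limits Aldh1a7 in NGN3+ cells and Cyp26c1 throughout.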
